A study of Mus musculus with 5 samples.

Results

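The dual-specificity phosphatases (DUSPs) described here are enzymes that inactivate MAP kinases. They were chosen by gene symbol as Dusp1, Dusp2, Dusp4, Dusp5, Dusp6, Dusp7, Dusp8, Dusp10, Dusp14 and Dusp16, which made 10 of the 55385 genes counted. All 10 were present and passed the filter on low counts, which kept 19768 genes.

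Hippocampal RNA was sequenced from male C57/bl6 mice at an age of 3 months, either untreated or after seizures provoked by kainic acid, a glutamate receptor agonist given intraperitoneally at 20 mg/kg. Tissue was taken 1, 4 or 8 h after the onset of seizures. There were 5 libraries, with 1 from untreated controls, 1 at 1 h, 2 at 4 h (replicate 1 and replicate 2) and 1 at 8 h. The control is labelled untreated and not vehicle-injected, so injection and seizure cannot be told apart, and the labels do not state whether a library came from a single animal or from pooled tissue.

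MAP kinases are switched on when an upstream kinase phosphorylates a threonine and a tyrosine in their activation loop, and DUSPs remove both phosphates. Many DUSP genes are themselves switched on by ERK signalling and calcium entry, so their products form a negative feedback on the pathway that induced them. Family members differ in where they act and which kinase they prefer. Dusp1, Dusp2, Dusp4 and Dusp5 encode inducible enzymes of the nucleus, Dusp6 and Dusp7 encode cytoplasmic enzymes selective for ERK, and Dusp8, Dusp10 and Dusp16 encode enzymes that prefer JNK and p38. Dusp14 encodes a small atypical phosphatase without the kinase-binding domain of the others. In hippocampal neurons ERK is activated by strong synaptic input.

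Summed over genes, the control library held 19100374 read counts and the 1 h library 17744508. Replicates 1 and 2 of the 4 h pair held 18250114 and 19109204, and the 8 h library 16612225. Levels are given as CPM, the count of a gene scaled to a common library total with TMM factors, which corrects for library size and composition. Exact 95% intervals, Poisson for a level and binomial for a ratio of 2 libraries, cover counting error only. They do not cover differences between animals, which only the pair at 4 h could show.

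The markers of the tissue were present in every library, and some markers of neighbouring tissue differed between libraries. The summed level of 6 neuron markers, of which Snap25 was the most abundant, was 3869 CPM in the control, 4069 CPM in the 1 h library, 4122 and 3737 CPM in replicates 1 and 2 of the 4 h pair, and 3437 CPM in the 8 h library. Single markers of this list, chosen after their values were seen, differed from the control at 4 h. Those of inhibitory neurons were higher than in the control, with Gad1 at 256 CPM in the control and 515 and 379 CPM in replicates 1 and 2, and Gad2 at 103 CPM and 150.5 and 155 CPM. Rbfox3 was lower, at 119 CPM in the control and 82.0 and 82.4 CPM, as was Slc17a7, a marker of excitatory neurons, at 639.7 CPM and 506 and 578 CPM. The 5 hippocampal neuron markers, led by Zbtb20, summed to between 747 and 992 CPM. Within that list Prox1, a marker of dentate granule cells, was at 60.0 CPM in the control and 172 and 119.7 CPM in replicates 1 and 2 at 4 h, and Zbtb20 at 331 CPM and 613 and 379 CPM. Neurod6 was at 144 CPM in the control and 60.9 and 67.1 CPM at 4 h, Fibcd1 at 132 CPM and 69.1 and 92.3 CPM, and Wfs1 at 84.7 CPM and 76.7 and 88.5 CPM. The 4 choroid plexus markers, led by Ttr, summed to 3957 CPM in the control, 1672 CPM in the 1 h library, 28.8 and 4233 CPM in replicates 1 and 2 of the 4 h pair, and 3069 CPM in the 8 h library. Replicate 1 at 4 h thus stood apart, with all 4 of these markers at no more than 0.5 times the control, although none was at 0 in all libraries. In the 1 h library 3 of these 4 were at no more than 0.5 times the control. The 4 thalamus markers, all of them also counted in the control and led by Prkcd, summed to 40.2 CPM in the control, 43.0 CPM in the 1 h library, 259 and 99.5 CPM in replicates 1 and 2 of the 4 h pair, and 33.7 CPM in the 8 h library. All 4 were at least 2-fold over the control in replicate 1 and 1 of 4 was in replicate 2. The share of reads on no gene also differed, at 24.7% in the control, 29.0% in the 1 h library, 33.1% and 25.3% in replicates 1 and 2 of the 4 h pair, and 30.9% in the 8 h library. The part of these differences in the DUSP levels was not tested.

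Sums of the other marker lists lay within narrower ranges than those of choroid plexus and thalamus. The 4 astrocyte markers, led by Slc1a3, summed to 922 CPM in the control and between 1014 and 1520 CPM after seizures. Gfap alone was at 221 CPM in the control, 272 CPM in the 1 h library, 596 and 510.2 CPM in replicates 1 and 2 of the 4 h pair, and 587 CPM in the 8 h library. The remaining astrocyte markers did not follow it at 8 h. Aqp4, Aldh1l1 and Slc1a3 were at 133, 58.8 and 509 CPM in the control and 129, 61.3 and 579 CPM at 8 h. The 4 microglia markers, led by Csf1r, summed to between 133 and 167 CPM, and P2ry12 alone, chosen after its values were seen, was at 31.9 CPM in the control and 13.9 and 17.8 CPM in replicates 1 and 2 at 4 h. The 4 oligodendrocyte markers, led by Mbp, summed to between 2377 and 3807 CPM, the 4 endothelial markers, led by Flt1, to between 82.7 and 128 CPM, and the 4 globin genes of blood, led by Hbb-bs, to between 108 and 226 CPM. The 4 markers of infiltrating myeloid cells, led by S100a9, summed to no more than 2.17 CPM, and 1 of them (Ly6c2) had at most 3 counts in any library. In bulk tissue a change in the number of cells of a type and a change in RNA per cell cannot be told apart.

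Promoters of 9 of the 10 members were found in the RefSeq table for GRCm38.p6, in windows of 300 bases that reach from 250 bases before to 50 bases after the RefSeq start. GENCODE also lists transcripts of Dusp1, Dusp5, Dusp8, Dusp10 and Dusp14 that start farther upstream than this site. Motifs of factors that act downstream of ERK and calcium signalling were searched on both strands. The cAMP response element (CRE) TGACGTCA was found in 1.79% of all 32851 promoters, its core TGACG, which lies within it, in 20.8%, and the CArG box of serum response factor in 1.63%. EGR sites (GCGGGGGCG or GCGTGGGCG) were found in 3.47% and AP-1 sites (TGAGTCA or TGACTCA) in 5.20%. The stretches before the start that are not annotated as exon are shown for 4 members, with matched letters in capitals. Dusp1 and Dusp8 are shown as the members that held the CRE, Dusp5 for its adjoining CArG boxes, and Dusp6, with no match, for its high level at 1 h. The Dusp1 stretch lies at chr17:26508520-26508722 (minus strand), that of Dusp5 at chr19:53528895-53529108 (plus strand), that of Dusp6 at chr10:99262981-99263230 (plus strand) and that of Dusp8 at chr7:142095285-142095534 (minus strand).
Dusp1: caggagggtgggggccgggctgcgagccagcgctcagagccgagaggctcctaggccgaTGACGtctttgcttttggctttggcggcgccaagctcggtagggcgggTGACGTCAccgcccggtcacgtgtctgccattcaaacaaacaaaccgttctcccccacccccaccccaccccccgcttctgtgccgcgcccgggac
Dusp5: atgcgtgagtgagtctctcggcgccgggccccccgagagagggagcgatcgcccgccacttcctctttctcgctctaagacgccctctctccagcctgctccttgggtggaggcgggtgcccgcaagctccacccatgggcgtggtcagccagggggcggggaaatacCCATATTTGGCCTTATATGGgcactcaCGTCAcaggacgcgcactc
Dusp6: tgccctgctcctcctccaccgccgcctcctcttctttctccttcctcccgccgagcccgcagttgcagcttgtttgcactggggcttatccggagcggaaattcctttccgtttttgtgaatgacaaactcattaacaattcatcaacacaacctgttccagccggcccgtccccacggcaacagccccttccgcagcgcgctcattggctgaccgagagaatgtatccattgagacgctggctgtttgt
Dusp8: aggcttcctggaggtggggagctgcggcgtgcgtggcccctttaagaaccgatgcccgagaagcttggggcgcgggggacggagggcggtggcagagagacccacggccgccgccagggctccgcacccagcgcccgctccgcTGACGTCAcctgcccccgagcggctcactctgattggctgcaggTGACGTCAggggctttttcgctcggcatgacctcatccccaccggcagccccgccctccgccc

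The Dusp1 window held 1 CRE and a separate CRE core, the Dusp8 window held 2 CREs, and the Dusp5 window held 2 CArG boxes and 1 CRE core. Of the other members, Dusp16 held 1 CRE core, and Dusp2 held 1 CRE core after its start and 1 EGR site. The windows of Dusp6, Dusp7, Dusp10 and Dusp14 held none of these letters, and none of the 9 windows held an AP-1 site. The Dusp4 promoter was not analysed here. Such a match describes the sequence and does not show that a factor binds there.

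Among the inducible nuclear phosphatases, Dusp1 (ENSMUSG00000024190.7, chr17:26505590-26562128) had the highest ratio to the control of any member at 1 h. It is a classic immediate early gene whose product acts on p38, JNK and ERK. It was counted 161 times in the control, 1545 times in the 1 h library, 647 and 158 times in replicates 1 and 2 of the 4 h pair, and 96 times in the 8 h library. Normalized levels were 8.09 CPM in the control, 87.9 CPM in the 1 h library, 38.4 and 8.36 CPM in replicates 1 and 2 of the 4 h pair, and 5.48 CPM in the 8 h library. The level was thus high at 1 h and in replicate 1 at 4 h, whereas replicate 2 at 4 h lay at the level of the control. The ratio to the control was 10.9 (9.23 to 12.9) in the 1 h library, 4.75 (3.99 to 5.68) and 1.03 (0.824 to 1.29) in replicates 1 and 2 of the 4 h pair, and 0.677 (0.520 to 0.877) in the 8 h library.

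Dusp5 (ENSMUSG00000034765.6, chr19:53529109-53542431), whose product binds and inactivates ERK in the nucleus, had a similar early peak. Its counts were 346 in the control, 2149 in the 1 h library, 969 and 602 in replicates 1 and 2 of the 4 h pair, and 341 in the 8 h library. The normalized levels were 17.4 CPM in the control, 122 CPM in the 1 h library, 57.5 and 31.8 CPM in replicates 1 and 2 of the 4 h pair, and 19.5 CPM in the 8 h library. Unlike Dusp1, both libraries at 4 h lay above the control, and only the 8 h library was back within counting error of it. The ratio to the control was 7.03 (6.28 to 7.90) in the 1 h library, 3.31 (2.92 to 3.75) and 1.83 (1.60 to 2.10) in replicates 1 and 2 of the 4 h pair, and 1.12 (0.961 to 1.30) in the 8 h library. An annotated gene on the opposite strand covers 22.1% of the merged exons of Dusp5, against at most 1.36% for the other members. The library kit keeps the strand, but the strand setting of the counting is not given in the sources used here. How reads from the shared part were counted is thus not known.

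Dusp4 (ENSMUSG00000031530.6, chr8:34807297-34819894), which encodes a nuclear phosphatase of ERK and JNK, peaked later. It had 378 counts in the control, 1068 in the 1 h library, 2423 and 1447 in replicates 1 and 2 of the 4 h pair, and 444 in the 8 h library. This corresponds to 19.0 CPM in the control, 60.8 CPM in the 1 h library, 144 and 76.5 CPM in replicates 1 and 2 of the 4 h pair, and 25.3 CPM in the 8 h library. Both libraries at 4 h lay above the 1 h library, and Dusp4 was the only member past 2-fold over the control in both replicates at 4 h. The ratio to the control was 3.20 (2.84 to 3.61) in the 1 h library, 7.58 (6.80 to 8.47) and 4.03 (3.60 to 4.52) in replicates 1 and 2 of the 4 h pair, and 1.33 (1.16 to 1.53) in the 8 h library. Dusp2, best known from lymphocytes, was near the limit of detection, with 13 counts in the control, 24 in the 1 h library, 20 and 12 in replicates 1 and 2 of the 4 h pair, and 6 in the 8 h library. Its ratio of 2.09 at 1 h had an interval of 1.02 to 4.47, and the intervals of its other ratios included 1.

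**Figure D1:**
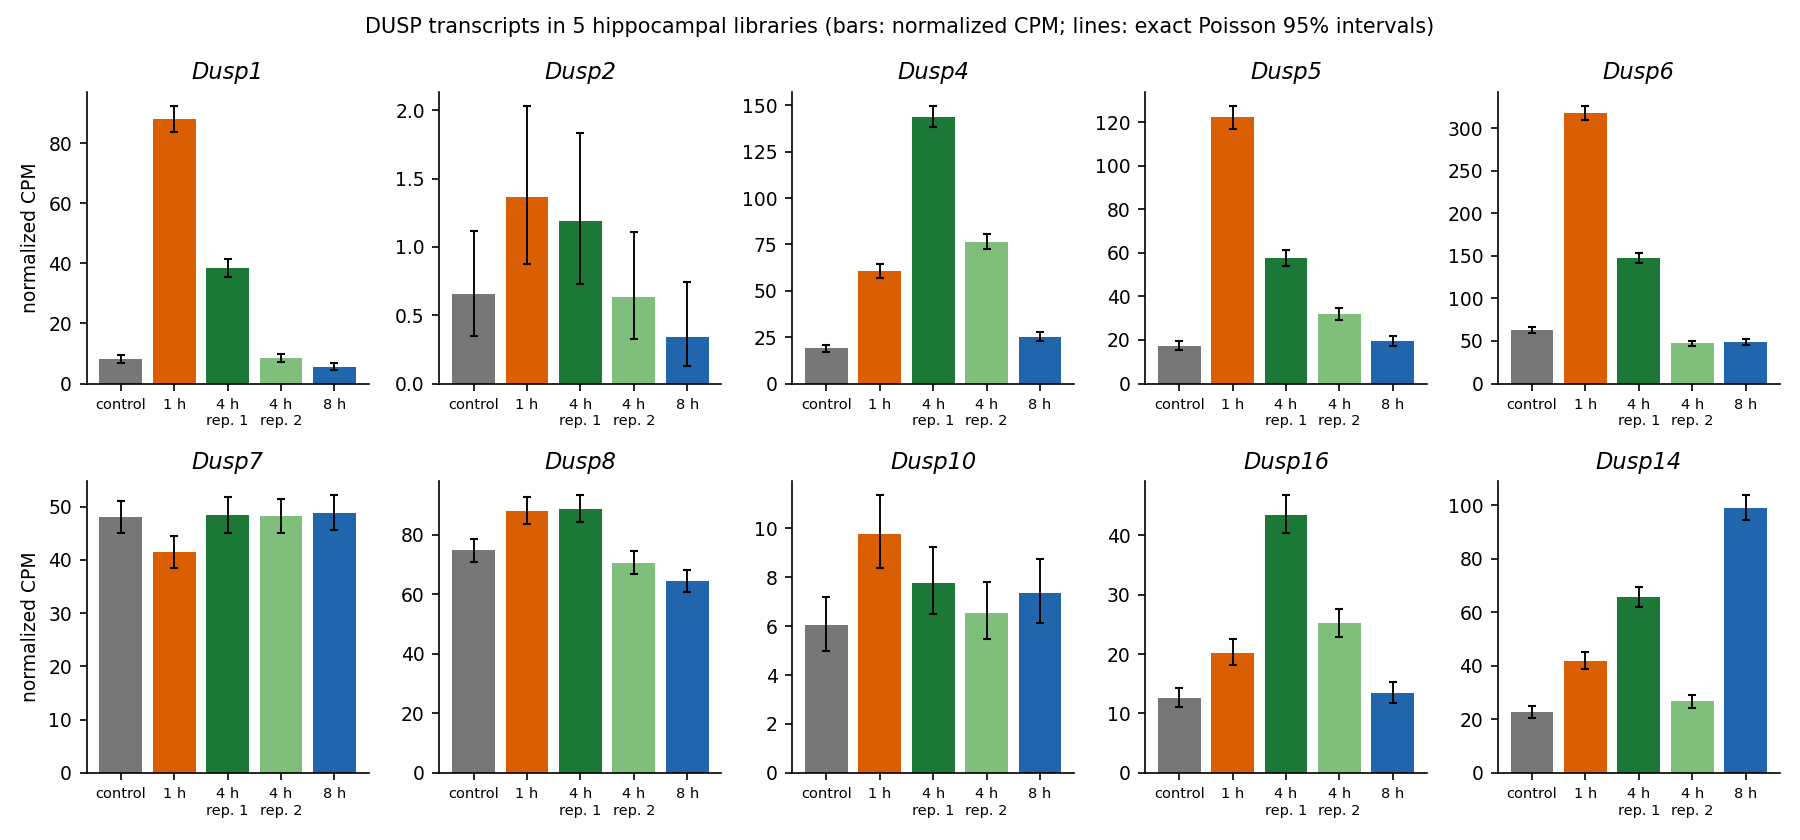
Normalized level in CPM (y axis, a separate linear scale from 0 for each gene) of the 10 members in the 5 libraries, with exact Poisson 95% intervals as lines. Dusp1, Dusp5 and Dusp6 are highest at 1 h, Dusp4 and Dusp16 in replicate 1 at 4 h and Dusp14 at 8 h (99.0 CPM), while Dusp7 stays between 41.4 and 48.8 CPM.

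The cytoplasmic ERK phosphatases differed from each other. Dusp6 (ENSMUSG00000019960.8, chr10:99263231-99267489) is induced by ERK signalling in many tissues. It had 1254 counts in the control, 5586 in the 1 h library, 2474 and 892 in replicates 1 and 2 of the 4 h pair, and 856 in the 8 h library, or 63.0, 318, 147, 47.2 and 48.8 CPM in the same order. Its level was high at 1 h and in replicate 1 at 4 h, and lay below the control in the remaining seizure libraries. The ratio to the control was 5.04 (4.74 to 5.37) in the 1 h library, 2.33 and 0.749 (0.686 to 0.816) in replicates 1 and 2 of the 4 h pair, and 0.775 (0.710 to 0.846) in the 8 h library. Dusp7, the closest relative of Dusp6 among the members, had between 728 and 955 counts. Its level was 48.0 CPM in the control, 41.4 CPM in the 1 h library, 48.3 and 48.2 CPM in replicates 1 and 2 of the 4 h pair, and 48.8 CPM in the 8 h library, so that its ratio to the control was between 0.863 and 1.02.

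Among the phosphatases that prefer JNK and p38, Dusp16 had the widest range. Its counts were 252 in the control, 356 in the 1 h library, 733 and 476 in replicates 1 and 2 of the 4 h pair, and 235 in the 8 h library, or 12.7, 20.3, 43.5, 25.2 and 13.4 CPM. As for Dusp4, both libraries at 4 h lay above the 1 h library. The 8 h library was within counting error of the control for Dusp16, whereas for Dusp4 the ratio was 1.33 (1.16 to 1.53). The ratio of Dusp16 to the control was 1.60 (1.36 to 1.89) in the 1 h library and 1.06 (0.883 to 1.27) in the 8 h library. In replicates 1 and 2 of the 4 h pair it was 3.44 (2.98 to 3.98) and 1.99 (1.70 to 2.33). Replicate 2 was thus just under 2-fold. Dusp8, which is expressed mainly in brain, had 1486 counts in the control, 1547 in the 1 h library, 1492 and 1334 in replicates 1 and 2 of the 4 h pair, and 1126 in the 8 h library, and its ratio to the control lay between 0.860 and 1.19. Dusp10 had between 120 and 172 counts, with a ratio to the control of 1.62 (1.28 to 2.07) at 1 h and between 1.09 and 1.29 later.

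Dusp14 (ENSMUSG00000018648.15, chr11:84048041-84069261) was the member with the latest peak. It had 451 counts in the control, 737 in the 1 h library, 1104 and 504 in replicates 1 and 2 of the 4 h pair, and 1735 in the 8 h library, or 22.7, 41.9, 65.6, 26.7 and 99.0 CPM. It was highest at 8 h, and the libraries at 4 h lay on either side of the 1 h library. The ratio to the control was 1.85 (1.64 to 2.09) in the 1 h library, 2.89 (2.59 to 3.24) and 1.18 (1.03 to 1.34) in replicates 1 and 2 of the 4 h pair, and 4.37 (3.94 to 4.86) in the 8 h library. The 8 h time point had 1 library, so this peak has no replicate.

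**Figure D2:**
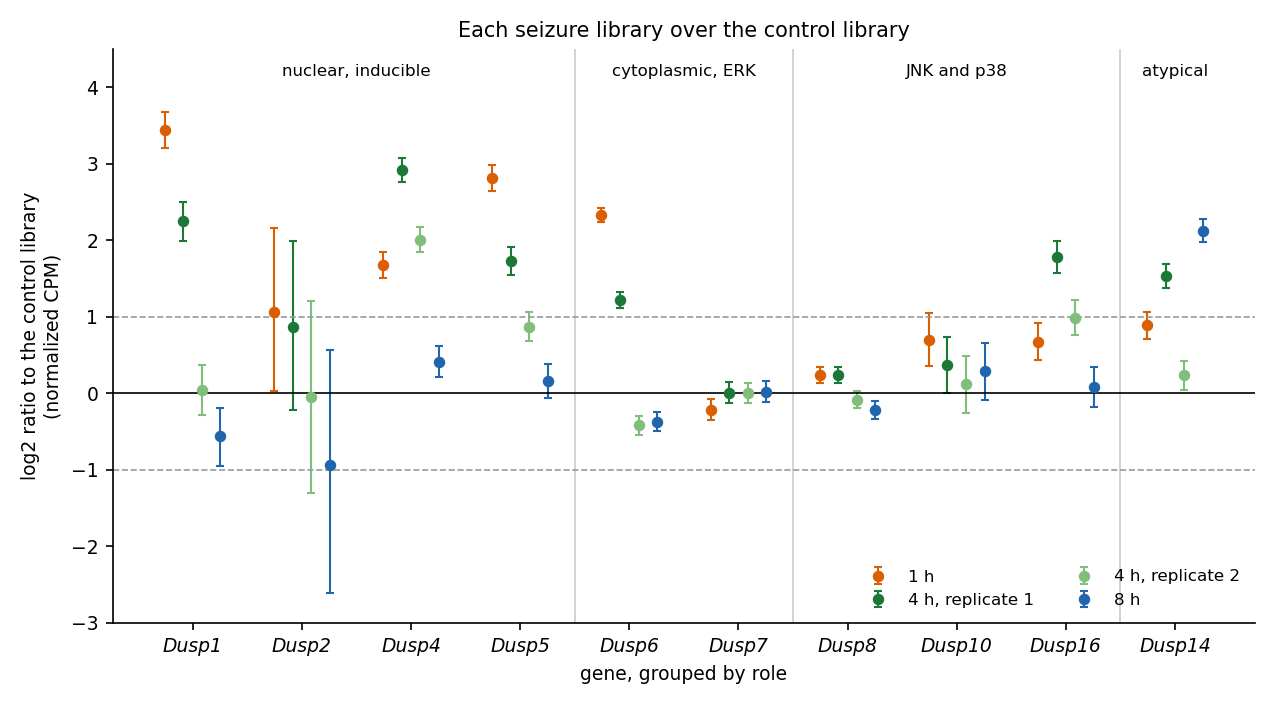
log2 ratio of each seizure library to the control library (y axis) for the 10 members grouped by role (x axis), with exact binomial 95% intervals as lines and dashed lines at 2-fold. The 1 h points of Dusp1, Dusp4, Dusp5 and Dusp6 lie above the dashed line with their whole interval, and the 4 h replicates of Dusp1 and Dusp6 lie far apart.

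The first comparison asked which members differed 1 h after seizure onset. A gene was counted as 2-fold higher or lower where this held for every library of the later group against every library of the earlier group. At least 2-fold higher levels than in the control were found for 5 of 10 members (Dusp1, Dusp2, Dusp4, Dusp5 and Dusp6), against 5.41% of all genes tested. No member was 2-fold lower, beside 751 of 19768 genes. The log2 fold change was 3.42 ± 1.02 (SE) for Dusp1, 2.81 ± 0.45 for Dusp5, 2.33 ± 0.74 for Dusp6 and 1.67 ± 0.45 for Dusp4. In the edgeR quasi-likelihood test with Benjamini-Hochberg adjustment over all genes, adjusted p values of the members were between 0.966 and 1, so 0 of 10 passed, as did 0% of all genes. At an unadjusted p under 0.05 edgeR listed 4 of 10 members (Dusp1, Dusp4, Dusp5 and Dusp6) against 2.42% of all genes. DESeq2 called 1 member (Dusp5) among 49 genes and limma-voom called 0 members and 0 genes. The median log2 fold change of the members was 0.92, and that of all genes was -0.01. With library size alone as the scaling, Dusp2 was no longer past 2-fold, which left 4 members, beside 961 of 19768 genes. With this scaling edgeR with Benjamini-Hochberg adjustment called 1 member (Dusp5, adjusted p 0.00648) among 57 genes.

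At 4 h, Dusp4 was the only member at least 2-fold above the control in both replicates, which is 1 of 10 against 4.96% of all genes. The edgeR log2 fold change was 2.53 ± 0.43 (SE) for Dusp4, 1.43 ± 0.40 for Dusp16 and 1.36 ± 0.39 for Dusp5. Adjusted p values from edgeR with Benjamini-Hochberg adjustment were between 0.254 (Dusp4) and 0.989 (Dusp7), so 0 of 10 members passed against 0.00506% of all genes, which was 1 gene. The unadjusted p was under 0.05 for 3 of 10 members (Dusp4, Dusp5 and Dusp16) and 11.6% of all genes. DESeq2 called 1 member (Dusp4) among 233 genes, and limma-voom called 0 members and 0 genes. The count at 2-fold depended on the replicate used: replicate 1 alone gave 6 of 10 members (Dusp1, Dusp4, Dusp5, Dusp6, Dusp14 and Dusp16) against 11.9% of all genes, and replicate 2 alone gave 1 of 10 (Dusp4) against 6.59%. The median log2 fold change was 0.82 over the members and 0.01 over all genes.

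At 8 h, Dusp14 was the only member at least 2-fold above the control, which is 1 of 10 against 6.79% of all genes. Its log2 fold change was 2.12 ± 0.61 (SE), and that of the other members was between -0.75 and 0.41. In edgeR with Benjamini-Hochberg adjustment, 0 of 10 members and 0% of all genes passed, with an adjusted p of 0.999 for Dusp14. An unadjusted p under 0.05 was given to Dusp14 alone, 1 of 10 members against 4.51% of all genes. DESeq2 called 0 members among 32 genes and limma-voom called 0 members and 0 genes. The members' median log2 fold change was 0.05, beside 0.01 for all genes. These comparisons share 1 control library, and a deviation of that library would enter each of them.

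Between 1 h and 4 h, Dusp1, Dusp5 and Dusp6 were at least 2-fold lower in both replicates, which is 3 of 10 members against 1.52% of all genes. Their log2 fold changes were -1.91 ± 0.77 (SE), -1.45 ± 0.35 and -1.71 ± 0.59. The values of Dusp4 and Dusp16 were positive, at 0.86 ± 0.39 and 0.76 ± 0.38, but with replicate 2 alone they were 0.33 and 0.31. For Dusp1 the value was -1.19 with replicate 1 alone and -3.38 with replicate 2 alone. With replicate 1 alone 2 members (Dusp4 and Dusp16) were at least 2-fold higher than at 1 h, against 9.13% of all genes. With replicate 2 alone 4 members (Dusp1, Dusp2, Dusp5 and Dusp6) were at least 2-fold lower, against 4.98%. In edgeR with Benjamini-Hochberg adjustment the adjusted p values were between 0.497 and 0.968, and 0 of 10 members passed against 0.00506% of all genes. At an unadjusted p under 0.05 there were 2 of 10 members (Dusp5 and Dusp6) against 7.94% of all genes, and DESeq2 and limma-voom called 0 members, among 103 and 0 genes.

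Between 4 h and 8 h, Dusp4 was at least 2-fold lower at 8 h than in both replicates at 4 h, which is 1 of 10 members against 3.08% of all genes. The log2 fold change was -2.12 ± 0.42 (SE) for Dusp4, -1.35 ± 0.39 for Dusp16 and -1.19 ± 0.39 for Dusp5. It was -2.07 ± 0.92 for Dusp1, -1.17 ± 0.80 for Dusp2 and 1.10 ± 0.49 for Dusp14. Adjusted p values from edgeR with Benjamini-Hochberg adjustment were between 0.463 and 0.991, and 0 of 10 members and 0% of all genes passed. The unadjusted p was under 0.05 for 3 of 10 members (Dusp4, Dusp5 and Dusp16) against 8.73% of all genes. DESeq2 called 1 member (Dusp4) among 132 genes, and limma-voom called 0 members and 0 genes. Against replicate 1 alone 6 of 10 members (Dusp1, Dusp2, Dusp4, Dusp5, Dusp6 and Dusp16) were at least 2-fold lower at 8 h, beside 8.76% of all genes. Against replicate 2 alone 1 of 10 (Dusp4) was lower, beside 4.78%, and 1 of 10 (Dusp14) was higher, beside 5.47%.

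The pair at 4 h was the only replication, and the DUSPs differed widely within it. Replicate 1 exceeded replicate 2 by a ratio of 4.60 (3.86 to 5.51) for Dusp1, 3.11 (2.88 to 3.37) for Dusp6 and 2.46 (2.21 to 2.74) for Dusp14. Dusp4, Dusp5 and Dusp16 had ratios of 1.88, 1.81 and 1.73, whereas Dusp7 was equal in both at 1.00 (0.912 to 1.10). At least 2-fold higher levels in replicate 1 were found for 3 of 10 members and 7.23% of all genes, and the reverse for 0 of 10 members and 4.84% of all genes. The median ratio of replicate 1 to replicate 2 was 1.84 over the members and 1.01 over all genes. The same direction was seen in 14 immediate early transcription factors, of which 11 were at least 2-fold higher in replicate 1, with a median ratio of 3.54. Fos, for example, was at 519 CPM in replicate 1 and 70.4 CPM in replicate 2, and Npas4 at 130.0 and 4.92 CPM. The choroid plexus and thalamus markers and the share of reads on no gene, given above, differed between the same libraries, and their part in the DUSP levels was not tested.

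**Figure D3:**
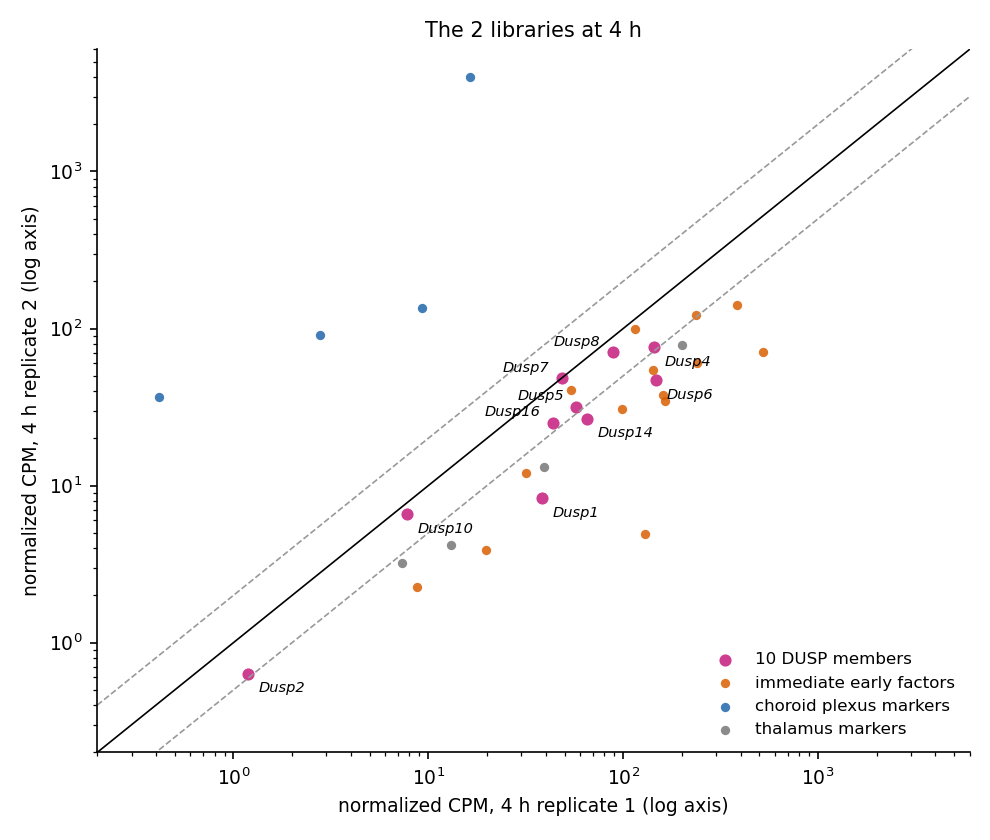
Normalized CPM in replicate 1 (x axis) and replicate 2 (y axis) at 4 h on log axes, for the 10 members, 14 immediate early factors, 4 choroid plexus and 4 thalamus markers. The solid line marks equal levels and the dashed lines 2-fold; Dusp1, Dusp6 and Dusp14 lie beyond 2-fold towards replicate 1 and the choroid plexus markers far beyond it towards replicate 2.

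To compare levels between genes, CPM was divided by the length of all annotated exons of a gene merged, in kb. In the control, Dusp6 was the most abundant member by this measure at 20.1 CPM per kb, followed by Dusp8 at 15.3, Dusp7 at 14.3 and Dusp14 at 11.7 CPM per kb. Dusp5 and Dusp4 had 7.03 and 6.93 CPM per kb, and Dusp1, Dusp10 and Dusp16 had 2.44, 1.98 and 1.62 CPM per kb. Dusp2 was lowest at 0.326 CPM per kb. The 95% intervals of neighbours in this order overlapped for Dusp8 and Dusp7, Dusp5 and Dusp4, Dusp1 and Dusp10, and Dusp10 and Dusp16.

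The most abundant member differed between time points. At 1 h it was still Dusp6, at 101.5 CPM per kb, followed by Dusp5 at 49.4 and Dusp1 at 26.5 CPM per kb. In both libraries at 4 h it was Dusp4, at 52.5 and 27.9 CPM per kb, and at 8 h Dusp14, at 50.9 CPM per kb. Summed over the 10 members the level was 81.7 CPM per kb in the control, 258 in the 1 h library, 209 and 107 in replicates 1 and 2 of the 4 h pair, and 117 in the 8 h library. The inducible nuclear members made up 20.5% of this sum in the control, 38.3% in the 1 h library, 42.0% and 40.9% in replicates 1 and 2 of the 4 h pair, and 16.1% in the 8 h library. This share was close in the libraries at 4 h although their sums were not. The members that prefer JNK and p38 made up 23.2% in the control, 9.25% in the 1 h library, 12.6% and 18.6% in replicates 1 and 2 of the 4 h pair, and 14.8% in the 8 h library. Their summed level was 18.9 CPM per kb in the control, 23.9 in the 1 h library, 26.3 and 19.9 in replicates 1 and 2 of the 4 h pair, and 17.3 in the 8 h library. Dusp14 alone made up 14.3% in the control and 43.4% at 8 h.

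**Figure D4:**
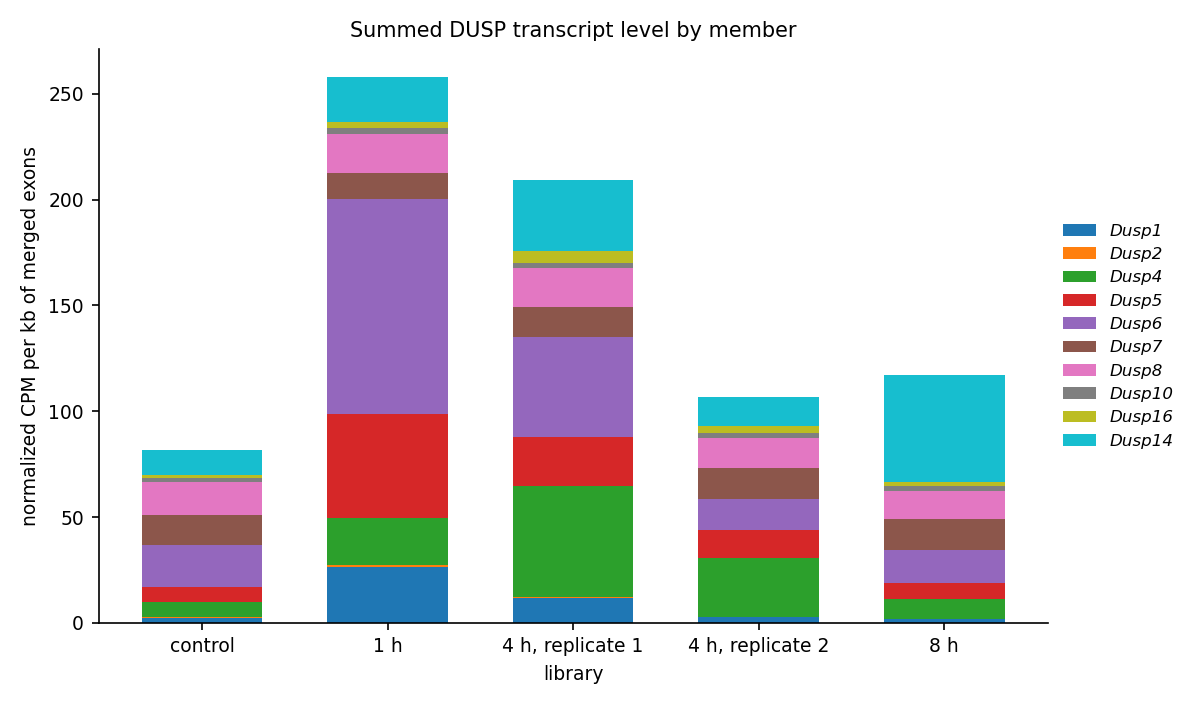
Level of the 10 members in normalized CPM per kb of merged exons (y axis), stacked for each of the 5 libraries (x axis). The sum is highest at 1 h (258 CPM per kb), where Dusp6 is the largest segment, and Dusp4 and then Dusp14 take its place at 4 h and 8 h.

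The other genes of the pathway were summarised by list. Of 16 other DUSP family genes, 13 passed the filter on low counts, and 0 were past 2-fold at 1 h, 1 at 4 h (Dusp9) and 1 at 8 h (Dusp27, lower). Of all 19768 genes tested, 1070 were higher and 751 lower at 1 h. At 4 h 980 were higher and 299 lower, and at 8 h 1342 and 666. Dusp9 had only 7 counts in the control and 18 and 15 counts at 4 h, and Dusp27 had 10 in the control and 2 at 8 h. In this list Dusp23, Dusp28 and Styx were next to Dusp9 in absolute log2 fold change at 4 h, at -0.91, -0.44 and 0.36. Its median log2 fold change was -0.02 (1 h), 0.02 (4 h) and -0.10 (8 h).

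The targets of the DUSPs, the MAP kinases themselves, had a median log2 fold change of -0.02 at 1 h. There 0 of 13 were past 2-fold, beside 1070 higher and 751 lower among 19768 genes. At 4 h, 3 of 13 were at least 2-fold higher in both replicates, against 4.96% of all genes. Mapk4, an atypical MAP kinase, was at 60.5 CPM in the control, 74.2 CPM in the 1 h library, 248 and 181 CPM in replicates 1 and 2 of the 4 h pair, and 97.0 CPM in the 8 h library. Mapk6, its closest relative, was at 38.4, 43.3, 119, 98.9 and 48.8 CPM in the same order, and Mapk7, which encodes ERK5, at 14.6, 10.6, 31.8, 30.4 and 22.7 CPM. All 3 were high in both replicates at 4 h and lower again at 8 h. Against the control, Mapk4 had a log2 fold change of 1.82 ± 0.25 (SE) and Mapk7 of 1.09 ± 0.24 in the 4 h group. The adjusted p there was 0.242 for Mapk4 and Mapk6 and 0.284 for Mapk7 in edgeR with Benjamini-Hochberg adjustment. Mapk3 and Mapk14, chosen after their values were seen, were below the control at 4 h. Mapk3, which encodes ERK1, was at 81.3, 75.9, 50.2, 55.4 and 46.2 CPM in the same order, with a log2 fold change of -0.62 at 4 h and -0.81 at 8 h. Mapk14, which encodes a p38 kinase, was at 93.8, 90.1, 58.1, 64.9 and 81.5 CPM, with a log2 fold change of -0.61 at 4 h. Mapk13, also among the largest by absolute log2 fold change, had 19 counts in the control and 9 and 3 at 4 h. At 8 h 1 of 13 MAP kinases (Mapk13, with 6 counts there) was at least 2-fold lower, as were 666 of 19768 genes.

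Among the kinases upstream of the MAP kinases, 0 of 7 MAP kinase kinases were past 2-fold in any of the 5 comparisons, which at 4 h takes both replicates. Of all 19768 genes, between 454 and 1342 were higher and between 299 and 751 lower in these comparisons. The median log2 fold change of the MAP kinase kinases was 0.03 (1 h), -0.13 (4 h) and -0.26 (8 h). Map2k3, which encodes a kinase that activates p38, was at 8.94 CPM in the control, 9.56 CPM in the 1 h library, 23.5 and 13.4 CPM in replicates 1 and 2 of the 4 h pair, and 9.58 CPM in the 8 h library. It was more than 2-fold over the control in replicate 1 only, and the log2 fold change of the 4 h group was 1.03. At 1 h the log2 fold change was between -0.15 and 0.27 for Map2k6, Map2k2, Map2k7 and Map2k3, and between -0.14 and 0.27 for Braf, Hras and Araf. Of the 3 tyrosine phosphatases that act on MAP kinases, Ptpn5 and Ptprr passed the filter and 0 were past 2-fold. Their log2 fold changes were 0.17 and -0.07 at 1 h, 0.17 and -0.46 at 4 h, and 0.05 and -0.88 at 8 h.

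Other feedback inhibitors of RAS and ERK signalling, of which 10 of 11 symbols were matched and tested, included genes that were high at 1 h and 4 h. At 1 h 2 of 10 were at least 2-fold higher (Errfi1 and Spry2), against 5.41% of all genes, and at 4 h 3 of 10 (Errfi1, Spry2 and Spred2), against 4.96%, with 0 of 10 at 8 h, against 6.79%. Errfi1, an inhibitor of the EGF receptor, was at 45.4 CPM in the control, 539.7 CPM in the 1 h library, 361 and 143 CPM in replicates 1 and 2 of the 4 h pair, and 55.2 CPM in the 8 h library. Spry2, a Sprouty protein that blocks signalling from receptor tyrosine kinases, was at 37.0, 149, 214, 103 and 37.2 CPM in the same order. Both were near the control at 8 h. Spred2, which inhibits RAF activation, and Rasa2, a RAS GTPase activating protein, were near the control at 1 h and had log2 fold changes of 1.48 ± 0.28 (SE) and 1.38 ± 0.36 at 4 h. The adjusted p at 4 h was between 0.259 and 0.329 for these 4 genes in edgeR with Benjamini-Hochberg adjustment. The list had a median log2 fold change of 0.22 (1 h), 0.81 (4 h) and -0.07 (8 h), beside -0.01, 0.01 and 0.01 for all genes.

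The immediate early transcription factors had the widest range. All 14 were at least 2-fold higher than the control at 1 h, against 5.41% of all genes, 7 of 14 at 4 h, against 4.96%, and 2 of 14 at 8 h, against 6.79%. At 8 h 1 of 14 was at least 2-fold lower, as were 666 of 19768 genes. Npas4 was at 3.92 CPM in the control and 694 CPM at 1 h, Atf3 at 0.653 and 110.3 CPM, Fosb at 3.52 and 372 CPM and Fos at 10.8 and 999 CPM. The list's median log2 fold change of 4.28 at 1 h was above that of any DUSP. Adjusted p values of these 4 factors at 1 h were between 0.685 and 1 in edgeR with Benjamini-Hochberg adjustment. In none of the lists did edgeR call a gene in any of the 5 comparisons after adjustment over all genes. At an unadjusted p under 0.05 it listed, at 4 h, 0 of 13 other DUSP genes, 5 of 13 MAP kinases, 1 of 7 MAP kinase kinases, 6 of 10 feedback inhibitors, 0 of 2 tyrosine phosphatases and 7 of 14 immediate early factors, against 11.6% of all genes. DESeq2 called 6 of 14 immediate early factors at 1 h, beside 49 of all 19768 genes. At 4 h it called 4 of 14 of these factors, 2 of 13 MAP kinases and 2 of 10 feedback inhibitors, beside 233 of all genes. Between 1 h and 4 h it called 3 of 13 MAP kinases, beside 103 of all genes. Between 4 h and 8 h it called 2 of 13 MAP kinases and 2 of 14 immediate early factors, beside 132 of all genes. It called 0 genes of the lists named here at 8 h versus control, beside 32 of all genes. In each comparison limma-voom called 0 genes of these lists and 0 of all genes.

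**Figure D5:**
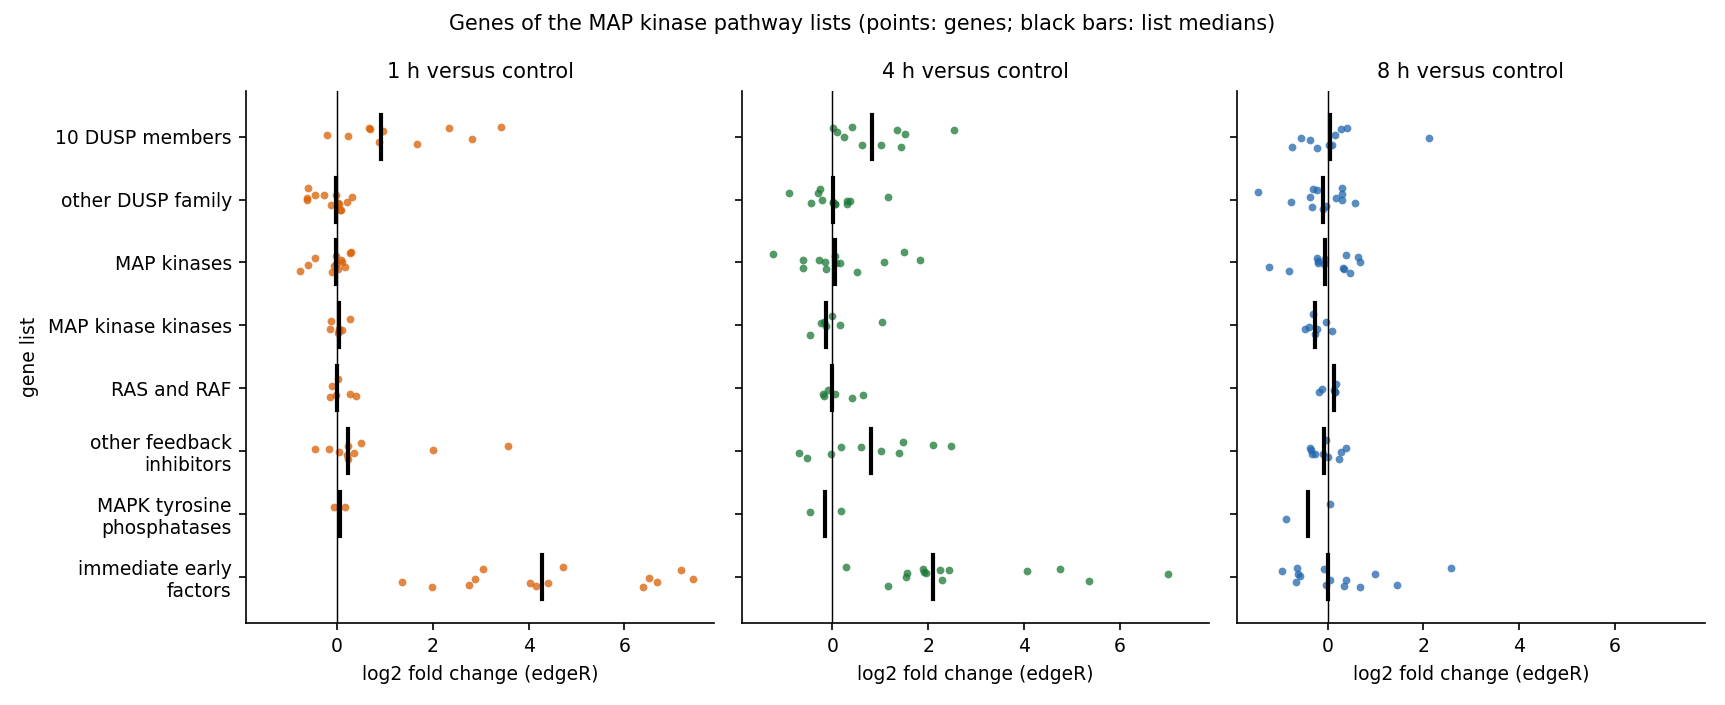
log2 fold change over the control (x axis, edgeR) of the tested genes of each list (y axis) at 1, 4 and 8 h. Points are genes and black bars list medians, which at 1 h are 0.92 for the 10 members, 0.22 for other feedback inhibitors and 4.28 for immediate early factors.

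For the 6 members with a 2-fold change by the rule above, the genes with the nearest time course were sought. The measure was the Euclidean distance over the 4 log2 ratios of the seizure libraries to the control, with 0.5 CPM added, among genes with a mean of at least 1 CPM. The nearest genes to Dusp1 were the immediate early genes Egr1, Ier2 and Nr4a1, at distances of 0.667, 0.760 and 0.791 beside a median of 4.09 over 16219 genes. Egr1, for example, was at 29.1 CPM in the control, 215 CPM in the 1 h library, 99.1 and 30.9 CPM in replicates 1 and 2 of the 4 h pair, and 19.1 CPM in the 8 h library, which also places replicate 2 at 4 h at the control level. Nearest to Dusp5 were Mir1938, Stil and Ppp1r15a, at distances of 0.208, 0.422 and 0.434 beside a median of 3.43, although Mir1938 and Stil were below 5 CPM in all libraries. Nearest to Dusp6 were Klf4, Kcne4 and Cwc25, at 0.478, 0.525 and 0.788 beside a median of 2.75, although Kcne4 was only between 0.570 and 8.31 CPM.

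The late members had other neighbours. Nearest to Dusp4 were Rrad, Plk2 and Mir22hg, at distances of 0.512, 0.607 and 0.650 beside a median of 3.95. Plk2, an activity-induced kinase, was at 272 CPM in the control, 1062 CPM in the 1 h library, 1502 and 919 CPM in replicates 1 and 2 of the 4 h pair, and 316 CPM in the 8 h library. Nearest to Dusp14 were Fst, Gm37661 and Icam1, at 0.878, 0.904 and 0.925 beside a median of 2.80, which are larger distances than for the nearest genes of the other members. Levels were low, with Fst at no more than 3.62 CPM and Gm37661 at no more than 1.94 CPM in any library. Icam1 was at 1.61 CPM in the control, 2.16 CPM in the 1 h library, 6.47 and 3.28 CPM in replicates 1 and 2 of the 4 h pair, and 6.45 CPM in the 8 h library. Dusp2, with at most 24 counts in a library, lay nearest to 4930523C07Rik, Tent5a and Btbd8, at 0.0979, 0.126 and 0.172 beside a median of 1.19.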

How the data were processed

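From total RNA and a stranded kit, the authors deposited raw counts of reads for each of 55385 genes in 5 libraries. Per the submitters' processing notes, STAR 2.5.1b, HTSeq and the build GRCm38.p4 were used. Neither the strand setting of HTSeq nor its annotation release is given in the sources used here. Gene positions and exons were taken from GENCODE release 21 for mouse, which held 55144 of the identifiers, and promoters from RefSeq.

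The tests were run with edgeR 4.0.16 under R 4.3.3. filterByExpr kept 19768 genes, and TMM factors were 1.04, 0.992, 0.924, 0.991 and 1.06 in the order control, 1 h, 4 h replicates 1 and 2, 8 h. A quasi-likelihood model of the 4 groups was fitted to all libraries, and p values were adjusted by Benjamini-Hochberg with a threshold of 0.05. The pair at 4 h gave 1 residual degree of freedom (common dispersion 0.0565, prior degrees of freedom 4.42), and the other groups, with 1 library each, were assumed to vary like this pair. Whether the pair came from separate animals is not stated, so p values measure only the spread between these libraries. Log2 fold changes used a prior count of 2. Their SE was computed from the log2 fold change without this prior count and the F statistic of the test. A member was counted as 2-fold higher or lower when every library of the later group was at least 2 times, or at most 0.5 times, every library of the earlier group. Alternatives used DESeq2 1.42.0, limma-voom (limma 3.58.1), other scalings and filters, and assumed biological coefficients of variation of 0.2 and 0.4. Single-replicate counts at 4 h were added after seeing the data. Intervals were computed with SciPy 1.17.1, and the fits were also run on simulated data. All simulated libraries were given the same dispersion, so this run cannot show whether the single libraries vary like the pair.

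Members, lists and rules were chosen with earlier results of these data known. Up to 4 genes of each pathway list were named, those with the largest absolute log2 fold change at the time point with most genes of the list past 2-fold, and for each member past 2-fold the 3 genes nearest in time course. A gene that this rule names is not reported here. Reads on no gene (between 24.7% and 33.1% of the reads) and the other HTSeq summary lines were left out.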

Additional observations from a re-analysis of the deposited data

Results flagged for a closer look

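For 3 members, levels at 1 h and 8 h lay on opposite sides of the control beyond counting error. Dusp1 was at 10.9 times the control at 1 h and 0.677 times at 8 h, a difference of 4.00 on the log2 scale. Dusp6 was at 5.04 and 0.775 times the control, a difference of 2.70, and Dusp8 at 1.18 and 0.860 times, a difference of 0.45. Each time point had 1 library, and the difference between 8 h and 1 h was not tested.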

How the results depend on the processing

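Values are given in the order 1 h, 4 h and 8 h versus control, 4 h versus 1 h and 8 h versus 4 h. As reported, 0 members were called in each, among 0, 1, 0, 1 and 0 genes. With library size alone 1, 1, 0, 0 and 1 members were called among 57, 237, 22, 67 and 120 genes, and with DESeq2 1, 1, 0, 0 and 1 among 49, 233, 32, 103 and 132 genes. Without a filter on low counts 4, 5, 1, 4 and 6 members were called among 285, 1300, 279, 725 and 957 genes. An assumed biological coefficient of variation of 0.2 gave 4, 4, 1, 3 and 4 members among 238, 916, 184, 513 and 660 genes, and one of 0.4 gave 0 members among 40, 81, 12, 33 and 48 genes. No member was called with median-of-ratios factors or limma-voom (0 genes in each comparison) or with at least 10 counts in every library (1 gene at 1 h and 0 in the others). That filter removed Dusp2, which has no value there. The cause of these differences was not tested.

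A threshold of 1.5-fold gave 8 members higher at 1 h among 2147 genes and 3 at 4 h among 2000. At 8 h it gave 1 higher (Dusp14) among 2779 and 1 lower (Dusp2) among 1767. It gave 3 lower between 1 h and 4 h among 1027, and 1 higher among 1378 and 5 lower among 1368 between 4 h and 8 h. With 1 replicate of the 4 h pair left out, a choice made after seeing the data, the members past 2-fold ranged from 1 to 6 higher at 4 h (1303 to 2360 genes). Between 1 h and 4 h they ranged from 0 to 2 higher (1253 to 1805 genes) and from 3 to 4 lower (984 to 1042 genes). Between 4 h and 8 h they ranged from 0 to 1 higher (1082 to 1457 genes) and from 1 to 6 lower (944 to 1732 genes).

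Of 505 log2 fold changes of single members under another setting, 434 kept their sign and their side of the threshold or moved by less than 1 SE, 42 passed the threshold, 18 moved by more and 11 changed sign. With 1 replicate of the 4 h pair left out, log2 fold changes have no test. At 4 h versus control they ranged from -0.036 to 0.76 for Dusp2, from -0.42 to 1.22 for Dusp6 and from -0.082 to 0.25 for Dusp8. At 4 h versus 1 h they ranged from -0.32 to 0.0097 for Dusp8 and from -0.65 to 0.64 for Dusp14, and at 8 h versus 4 h from -1.59 to 0.0497 for Dusp6 and from -0.079 to 0.16 for Dusp10. Values that kept their sign also moved. At 4 h versus control they ranged from 0.046 to 2.23 for Dusp1, 2.004 to 2.91 for Dusp4, 0.87 to 1.72 for Dusp5, 0.23 to 1.53 for Dusp14 and 0.99 to 1.77 for Dusp16. At 4 h versus 1 h they ranged from -3.38 to -1.19 for Dusp1, 0.33 to 1.24 for Dusp4, -1.94 to -1.09 for Dusp5, -2.75 to -1.11 for Dusp6 and 0.31 to 1.10 for Dusp16. At 8 h versus 4 h they ranged from -2.79 to -0.60 for Dusp1, -2.50 to -1.59 for Dusp4, -1.56 to -0.71 for Dusp5, 0.59 to 1.89 for Dusp14 and -1.69 to -0.90 for Dusp16. With library size alone the value at 4 h versus control was -0.12 for Dusp7 and -0.038 for Dusp8, and without a filter it was -0.0056 for Dusp7. limma-voom gave -0.016 for Dusp14 at 4 h versus 1 h. The cause was not tested. Library size alone moved the median of all genes by -0.12 at 4 h versus control and by 0.14 at 8 h versus 4 h. No paired analysis was possible because the groups compared share fewer than 2 replicate numbers. Depth limits Dusp2, with 6 to 24 counts, more than the other members.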

Other observations

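Ptprr, a tyrosine phosphatase of ERK, was at 20.5 CPM in the control, 19.6 CPM after 1 h, 14.6 and 15.1 CPM in replicates 1 and 2 of the 4 h pair, and 11.1 CPM in the 8 h library. The log2 fold change of -0.88 at 8 h rests on 1 library, and Ptprr was not past 2-fold there.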
